A study of Mus musculus with 20 samples.

Results

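Mouse embryonic stem cells (mESC) were compared with mouse embryonic fibroblasts (MEF) in 5 of the 20 RNA sequencing libraries of the series. They were 2 libraries of the stem cell line E14, 2 of the line v6.5 and 1 of MEF, and they were chosen by their labels, not by any measured value. E14 cells are wild type and come from strain 129/Ola. The v6.5 cells are wild type and come from a 129/svJae x C57BL/6 cross. The MEF come from the same cross as v6.5, carry the genotype Oct4-GFP (a fluorescent reporter of the gene Pou5f1), and are the parental cells of the reprogrammed lines in the survey. All 3 cell types were of embryonic age. The stem cells had been grown on irradiated MEF and briefly pre-plated before harvest so that these feeder cells would attach and stay behind. The series addressed Braveheart, a long noncoding RNA of heart development, and the survey of 8 libraries of pluripotent, reprogrammed and fibroblast cells served to pick such RNAs. The other 3 libraries of the survey came from 2 partially reprogrammed lines and 1 induced pluripotent line. They entered the filter on low counts, the scaling and the shared fit for the spread, but no difference reported here. The induced pluripotent line was also correlated with the stem cell libraries. A further 3 hairpin-treated E14 day 0 libraries of a time course gave 1 more level of fibroblast markers. Cell line and strain cannot be told apart here, and the reporter was in the MEF alone of the groups compared.

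Embryonic stem cells are derived from the inner cell mass of the blastocyst and can form every tissue of the embryo. A circuit of transcription factors around Oct4 (gene Pou5f1), Sox2 and Nanog keeps them in this state, and they grow as tight epithelial colonies with a short cell cycle. Fibroblasts are mesenchymal cells that crawl as single cells, secrete collagen and other extracellular matrix, contract through actin bundles, and keep a memory of their position in the body in the activity of their Hox genes.

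Levels are given as TPM (a length-corrected share of all transcripts) in the order E14 replicate 1, E14 replicate 2, v6.5 replicate 1 and v6.5 replicate 2, followed by MEF. A difference is the log2 fold change of the stem cell mean (both lines weighted equally) minus MEF. It comes from edgeR's quasi-likelihood test on the deposited expected counts. A value after ± is an approximate standard error (SE), the size of the difference divided by the square root of the test's F statistic. A gene was called when its Benjamini-Hochberg adjusted p was under 0.05 over the 18484 genes tested. Since MEF had 1 library, its spread was taken from the E14, v6.5 and partially reprogrammed groups of the fit. The partially reprogrammed group joined different lines as replicates, so the difference between those lines entered the spread. The labels do not say whether replicates were separate cultures, and the p-values cover no more than the variation among the libraries at hand. The 5 libraries summed to between 7815744 and 23662593 expected counts. Of all genes tested, 26.6% were called, namely 2245 (12.1%) higher in mESC and 2675 (14.5%) higher in MEF, with a median difference of 0.23. The total was 4920 and ran from 1683 without E14 replicate 2 and 1782 without E14 replicate 1 to 7720 without v6.5 replicate 2 and 8784 without v6.5 replicate 1. Genes higher in mESC were 45.6% of the calls here and 58.0% with limma on log2(TPM + 0.1). In 37.8% of genes tested all 4 stem cell libraries lay above MEF in TPM, and in 27.5% all 4 lay below.

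The v6.5 replicates differed more than the E14 replicates. The correlation of log2 levels over all genes tested was 0.991 between the E14 replicates and 0.897 between the v6.5 replicates. With E14, v6.5 replicate 1 correlated at 0.881 and 0.865 and v6.5 replicate 2 at 0.919 and 0.920, while with the induced pluripotent line they stood at 0.932 and 0.908. A set of 1033 entries joined genes with Rpl or Rps symbols and pseudogenes of every kind, whatever their parent gene. Over this set, v6.5 replicate 1 correlated at 0.894 with MEF and 0.901 with the induced pluripotent line. For v6.5 replicate 2 the values were 0.819 and 0.823, and the v6.5 replicates correlated with each other at 0.761. Set against MEF as a group of its own, v6.5 replicate 1 gave 5147 calls (2761 higher and 2386 lower) and v6.5 replicate 2 gave 6638 (3763 and 2875). Which of the v6.5 libraries is the less typical was not tested. Most list counts are therefore given with their range when each stem cell library is left out.

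**Figure D1:**
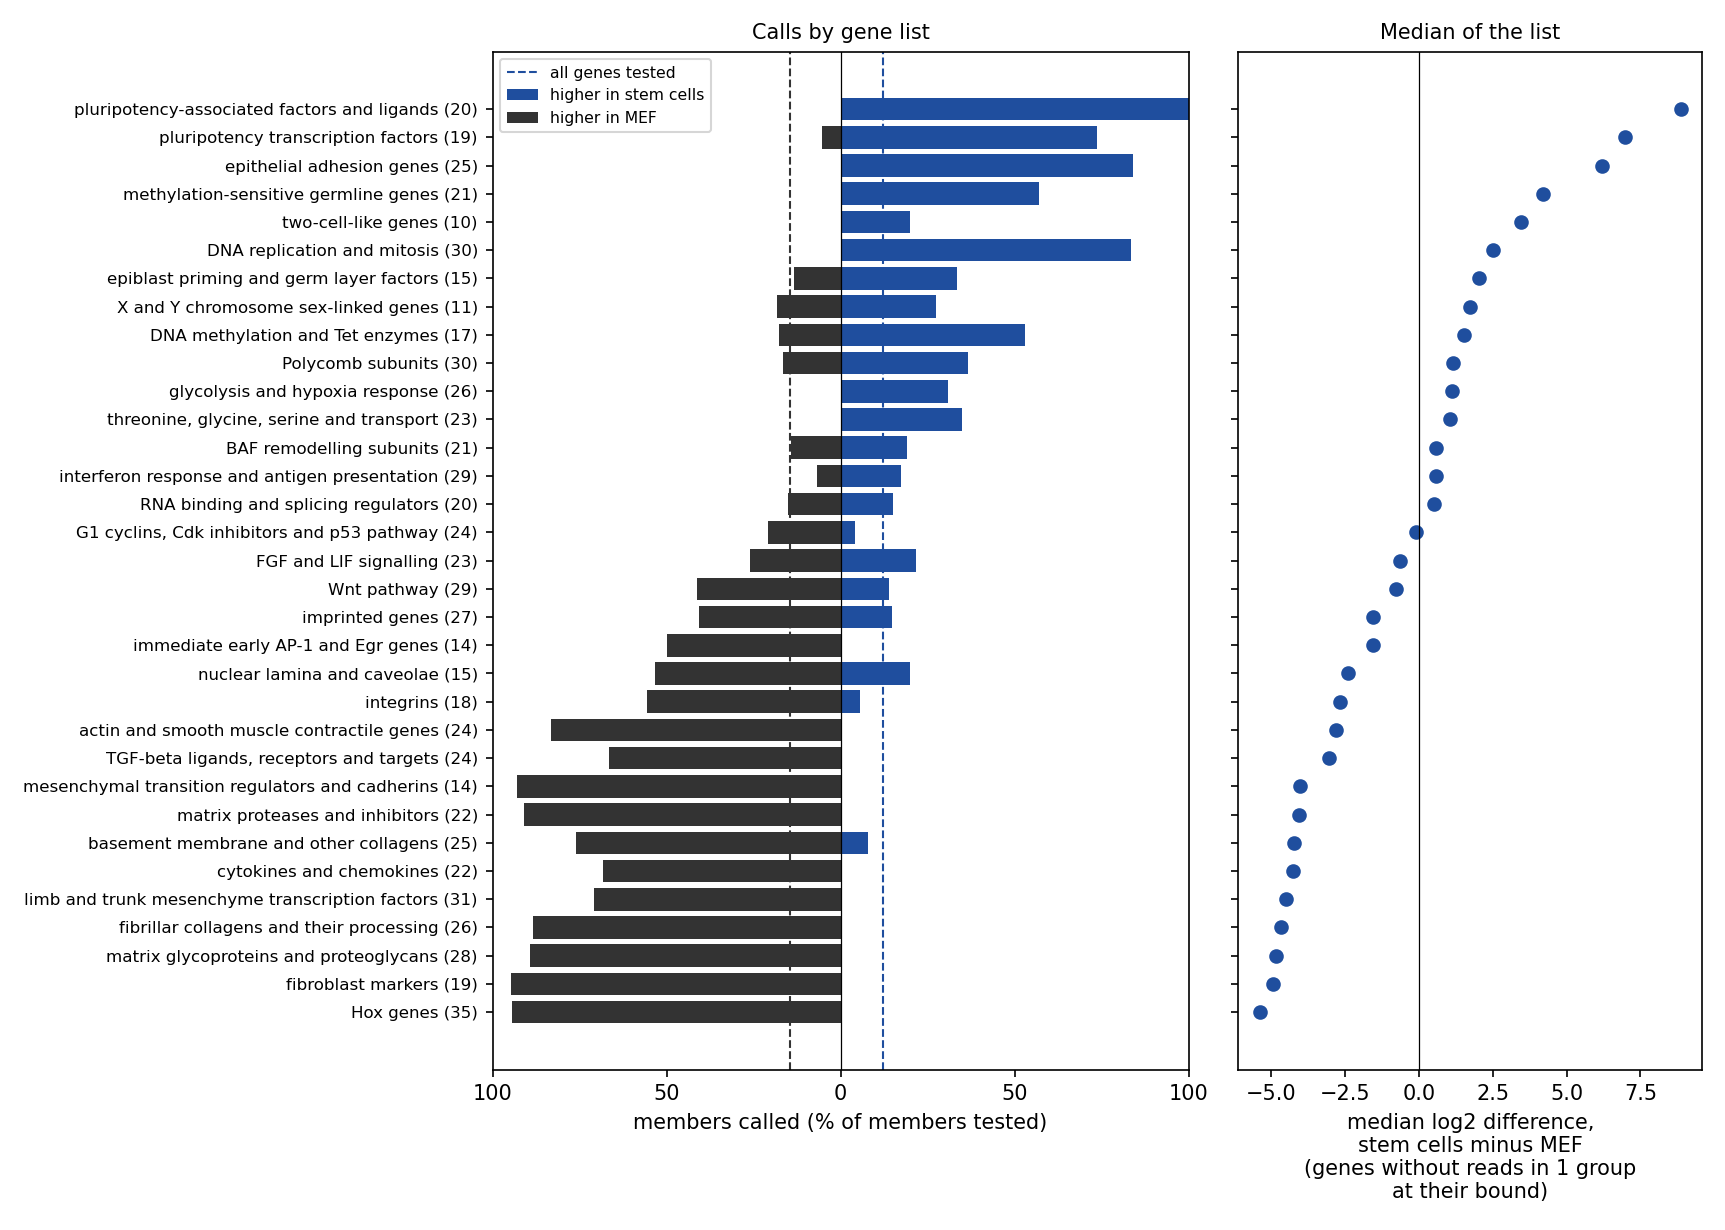
Gene lists in the comparison of stem cells with MEF. Left, the percentage of each list's tested members (number in brackets) called higher in stem cells (blue, to the right) or in MEF (dark, to the left), with dashed lines at 12.1% and 14.5%, the shares over all genes tested. Right, the median log2 difference of each list, with genes lacking reads in 1 group placed at their bound. Pluripotency, epithelial and germline lists sit at the top and Hox, fibroblast and matrix lists at the bottom.

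The core pluripotency factors were present in all 4 stem cell libraries and at or near 0 in MEF. Pou5f1, which encodes Oct4 (chromosome 17, 35642983 to 35647722 in mm9), stood at 943, 825, 793 and 1223 TPM and had no reads in MEF. It was at least 2209.9-fold higher in mESC, taking 3 counts in the MEF library as the floor (edgeR, adjusted p = 0.000913). Sox2, the partner of Oct4 on DNA (chromosome 3, 34548926 to 34551382 in mm9), stood at 395, 242, 647 and 204 TPM against 1.144 in MEF, a log2 difference of 8.60 ± 1.81 (edgeR, adjusted p = 0.0185). The lowest stem cell library of Sox2 was far above MEF, although v6.5 replicate 1 was more than 3-fold above v6.5 replicate 2. Nanog, the homeobox factor that stabilises self-renewal (chromosome 6, 122657585 to 122663796 in mm9), stood at 331, 319.7, 231 and 265 TPM, with 3 reads (1.06 TPM) in MEF. Its ratio of mean CPM (reads scaled to library size) was 737 (95% exact Poisson interval 252 to 3575), an interval that covers counting error only.

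The promoter of Nanog is shown because it carries, side by side, the octamer letters that Oct4 binds and the letters of a Sox site. It is the 250 bases before the RefSeq start, chr6:122707239-122707488 on the plus strand of GRCm38.p6, with both motifs in capitals.
Nanog: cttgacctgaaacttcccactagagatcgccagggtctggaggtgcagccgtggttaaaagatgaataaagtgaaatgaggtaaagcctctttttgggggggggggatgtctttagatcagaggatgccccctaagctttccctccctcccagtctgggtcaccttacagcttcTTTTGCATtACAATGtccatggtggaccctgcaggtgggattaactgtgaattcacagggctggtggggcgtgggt
Read on the minus strand, the octamer (searched as ATGCAAAN) lies 76 to 69 bases before the start and the Sox letters (CATTGT) lie 67 to 62 bases before it. Both motifs were searched on both strands. Among 27025 RefSeq mouse promoters of that length, 4.04% hold the octamer, 11% the Sox letters and 0.133% both within 12 bases of each other. Of the 13 pluripotency factors matched to a promoter, 3 held the octamer, namely Sox2, Nanog and Zfp42, and Nanog alone held the pair. Among promoters of genes called higher in mESC the octamer was in 3.26%, against 3.19% of all genes tested that had a promoter.

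Of the 19 pluripotency transcription factors on the list, 14 were called higher in mESC and 1 in MEF. The higher count ran from 13 without E14 replicate 1 or 2 to 17 without v6.5 replicate 2 when 1 stem cell library was left out. The list's median log2 difference was 8.60, or 6.97 with the 8 genes lacking MEF reads at their bound, against 0.23 over all genes tested. Zfp42 (Rex1, a marker of the naive state) stood at 618, 639.6, 120.4 and 126 TPM with no reads in MEF and was at least 1118-fold higher (edgeR, adjusted p = 0.00117). E14 held about 5 times the v6.5 level of Zfp42, a difference of 2.16 ± 0.33 on the log2 scale that did not pass the test (edgeR, adjusted p = 0.0618). Esrrb, the orphan nuclear receptor that supports Nanog, stood at 309, 259, 233 and 81.7 TPM and was at least 748-fold higher. Sall4, Nr0b1, Tfcp2l1, Nr5a2 and Prdm14 also had no reads in MEF, with bounds from at least 34.8-fold (Prdm14) to at least 720.0-fold (Sall4). The factors of this list that did not pass were those that MEF also make. Klf2 stood at 317, 176, 191 and 127 TPM against 52.2 in MEF (difference 1.67; edgeR, adjusted p = 0.0721). Klf4 stood at 152, 102, 176 and 73.3 TPM against 56.3 in MEF (edgeR, adjusted p = 0.305). Klf5 was at 57.1 to 104 TPM against 10.4 (edgeR, adjusted p = 0.0619), and for Tbx3 the MEF value of 19.6 TPM lay inside the stem cell range of 9.66 to 62.2.

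The Myc family split between the cell types. Mycn, the form dominant in early embryos, stood at 212, 181, 162 and 136 TPM against 2.28 in MEF, a difference of 6.08 ± 0.91 (edgeR, adjusted p = 0.00647). Myc stood at 18.5, 15.2, 25.0 and 22.1 TPM against 112 in MEF and was lower in mESC by the same test, at -2.79 ± 0.28 (edgeR, adjusted p = 0.00231). The 4 stem cell values of Myc lay close together. They were all below MEF, a pattern seen in 27.5% of all genes tested.

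All 20 pluripotency-associated factors and ligands were called higher in mESC, and the count was from 19 without E14 replicate 1 or 2 to 20 without v6.5 replicate 1 or 2 when 1 stem cell library was left out. Their summed level was 3757 to 6115 TPM in the stem cell libraries and 3.33 TPM in MEF. Dppa5a, an RNA-binding protein of the early embryo (chromosome 9, 78214860 to 78216006 in mm9), had the highest level at 3084, 3358, 1242 and 1422 TPM, with no MEF reads, and was at least 2811-fold higher (edgeR, adjusted p = 0.00187). L1td1, derived from a transposon and bound to Lin28a, stood at 313, 365, 188 and 299.8 TPM and was at least 1439-fold higher. Utf1, a chromatin-bound factor, stood at 243, 148, 626 and 268 TPM and was at least 917-fold higher. Among ligands and their partners, the Nodal co-receptor Tdgf1 stood at 443, 469, 402 and 487 TPM (at least 823-fold), Nodal at 63.8, 56.2, 90.5 and 51.2 TPM (at least 208-fold) and Fgf4 at 80.5, 72.6, 59.97 and 44.8 TPM (at least 125-fold). Lefty1, a Nodal antagonist, varied nearly 5-fold among the stem cell libraries, from 213 to 1029 TPM, and read 1.01 TPM in MEF (difference 8.88 ± 1.52). Lin28a, which blocks maturation of let-7 microRNAs, was steadier at 214, 192, 230.4 and 406 TPM and at least 474-fold higher. Tissue-nonspecific alkaline phosphatase, Alpl, whose activity stains stem cell colonies, stood at 177, 168, 124 and 55.7 TPM and was at least 545-fold higher.

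By size, the 12 leading genes higher in mESC with at least 20 TPM in every stem cell library came from these 2 lists in 10 cases. They were Dppa5a, Pou5f1, L1td1, Tdh, Zfp42, Tdgf1, Utf1, Esrrb, Sall4, Trh, Lefty2 and Alpl. The 2 outside the lists of pluripotency genes were Tdh, an enzyme described with metabolism below, and Trh, the precursor of thyrotropin-releasing hormone (chromosome 6, 92192055 to 92194642 in mm9). Trh stood at 262, 266, 283 and 415 TPM, had no reads in MEF and was at least 724-fold higher (edgeR, adjusted p = 0.000913). A total of 367 called genes had no reads in MEF.

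**Figure D2:**
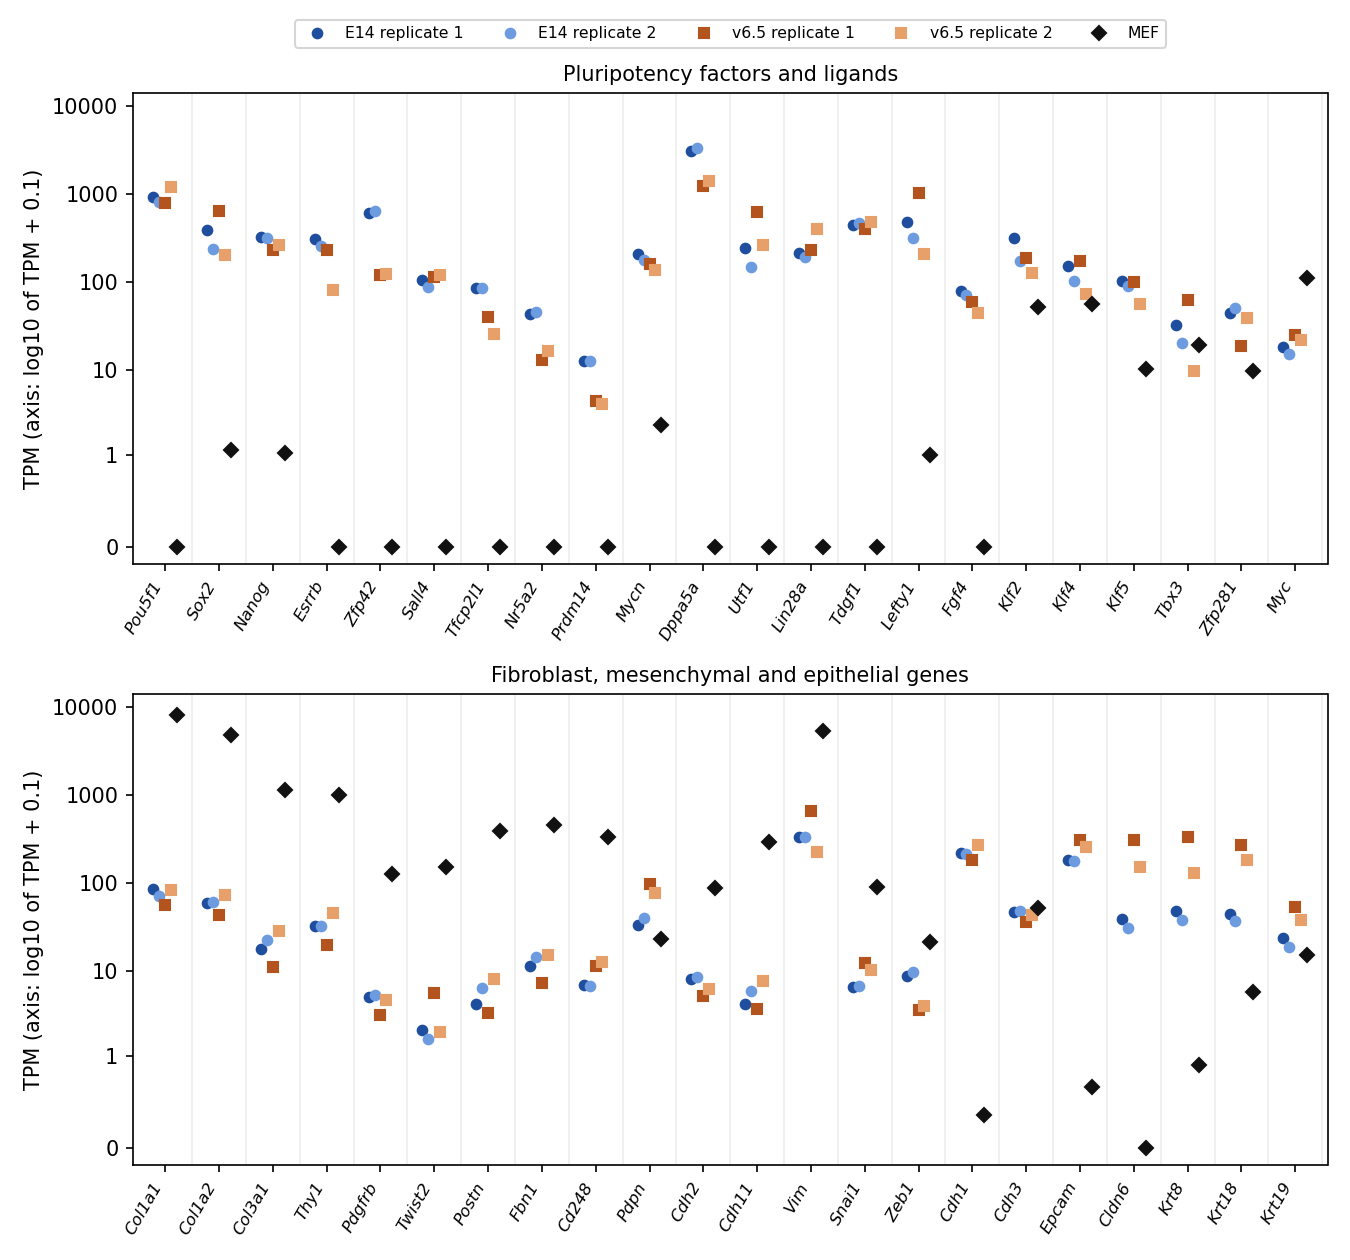
TPM of 22 pluripotency genes (top) and 22 fibroblast, mesenchymal and epithelial genes (bottom) in each of the 5 libraries, on a log10 axis of TPM + 0.1. Circles are E14, squares v6.5 and black diamonds MEF, and each point is 1 library. MEF sits at 0 for most of the pluripotency genes, inside or near the stem cell range for Klf4, Tbx3 and Cdh3, and above all 4 stem cell libraries for Myc, the collagens and vimentin.

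Fibroblast identity was the mirror image. Of 19 fibroblast markers, 18 were called higher in MEF, and the count ran from 13 without E14 replicate 1 or 2 to 18 without v6.5 replicate 1 or 2 when 1 stem cell library was left out. The markers summed to 17630 TPM in MEF and to 300.1 to 467.8 TPM in the stem cell libraries, with a median log2 difference of -4.91. Col1a1, the main chain of type I collagen (chromosome 11, 94797583 to 94813170 in mm9), stood at 87.2, 72.3, 56.7 and 84.9 TPM against 8103 in MEF, a difference of -7.05 ± 1.45 (edgeR, adjusted p = 0.0173). Thy1, the surface antigen CD90, stood at 33.0, 33.1, 20.02 and 45.7 TPM against 1006 (difference -5.23 ± 0.37). Cd248 (endosialin) stood at 6.86, 6.67, 11.6 and 12.8 TPM against 334 (difference -5.48 ± 0.23). Postn (periostin), Pdgfrb and Twist2 were lower in mESC, with log2 differences of -6.63, -5.16 and -6.19. Pdpn (podoplanin) was the exception, with all 4 stem cell libraries (33.3, 40.4, 99.4 and 78.1 TPM) above MEF (23.2), but it did not pass (edgeR, adjusted p = 0.109). Col1a1 lost its call in at least 1 of the fits that left out an E14 library.

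The fibroblast markers were low in the stem cell libraries but not at 0. For markers with at least 10 TPM in MEF, the median level relative to MEF was 3.11% and 3.29% in E14 and 2.41% and 4.54% in v6.5. Of the 19, Lum had no reads in v6.5 replicate 1 and Dpt had none in E14 replicate 1. The stem cells had shared a dish with fibroblast feeders, and how much of this level came from feeder cells was not tested. In bulk RNA, fewer cells of a type and less RNA per cell cannot be told apart. The day 0 libraries of the time course, from E14 mESC treated with a scrambled hairpin, hairpin A or hairpin B and held in a separately normalised FPKM table, gave sums of 123, 137 and 126 FPKM over 18 of these markers, with none at 0. Lum and Dpt lost their calls in at least 1 of the fits that left out an E14 library.

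Genes that build fibrillar collagen were higher in MEF as a group. Of 26 collagen and collagen-processing genes, 23 were called higher in MEF and none in mESC, a count that ran from 20 without E14 replicate 2 to 25 without v6.5 replicate 2 with 1 stem cell library left out. The type V chains Col5a1, Col5a2 and Col5a3, which nucleate collagen fibrils, differed by -6.11, -6.31 and -6.75 on the log2 scale. Serpinh1, the collagen chaperone Hsp47, stood at 115, 94.3, 233 and 98.0 TPM against 2955 (difference -4.73 ± 0.47). The crosslinking enzymes were lower in mESC together, with Lox at 30.9, 27.8, 38.8 and 28.3 TPM against 1187 (-5.46 ± 0.32) and Loxl1, Loxl2, Loxl3 and Loxl4 between -5.53 and -4.22. Hydroxylation enzymes differed less, with P4ha1 at -2.11 and Plod1 at -1.87. Plod2 stood at 3.58 to 41.3 TPM against 28.2 and did not pass. P4ha1 and Plod1 lost their calls in at least 1 of the fits that left out an E14 library.

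The wider matrix followed. Of 28 matrix glycoproteins and proteoglycans, 25 were called higher in MEF and none in mESC (from 21 without E14 replicate 1 or 2 to 27 without v6.5 replicate 1 with 1 stem cell library left out), with a median of -4.81. Fn1 (fibronectin) stood at 501, 512, 254 and 346 TPM against 4229 in MEF, a difference of -3.77 ± 0.27 (edgeR, adjusted p = 0.00127). Fibronectin thus stayed above 250 TPM in every stem cell library, unlike Tnc (tenascin C, 31.4, 33.1, 35.6 and 31.7 against 1799 TPM) and Fbln5 (fibulin 5, 4.53, 6.56, 6.71 and 6.06 against 527 TPM). Fmod (fibromodulin, a regulator of collagen fibril width) stood at 0.335, 0.205, 0 and 0 TPM against 25.9. With 3 reads over the 4 stem cell libraries, its MEF level was 561 times the stem cell level in CPM (95% exact Poisson interval 192 to 2718). Fbln1 stood at 75.9, 64.99, 58.1 and 34.2 TPM against 70.4 and Efemp1 at 5.15, 6.64, 14.4 and 12.5 TPM against 21.05, and neither passed.

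Basement membrane genes were mostly higher in MEF. Of 25, 19 (76%) were called higher in MEF and 2 (8%) in mESC, against 14.5% and 12.1% of all genes tested. The mESC share was thus below that of all genes. With 1 stem cell library left out the MEF count ran from 14 without E14 replicate 2 to 19 without v6.5 replicate 1 or 2. Col4a1 and Col4a2, the common type IV chains, stood at 12.8 to 32.5 and 10.8 to 21.9 TPM in mESC against 535 and 412 in MEF (differences -5.21 and -5.22). Sparc, which binds collagen in basement membranes, stood at 159.6, 162, 214 and 231 TPM against 3758 (-4.64 ± 0.27). The 2 called higher in mESC were the laminin chain Lama5, at 112, 96.7, 191 and 103 TPM against 25.5 (2.17 ± 0.58; edgeR, adjusted p = 0.037), and Nid2 (nidogen 2), at 271, 251, 156 and 120.5 TPM against 33.5 (2.28 ± 0.36; edgeR, adjusted p = 0.00782). Lamb1 and Lamc1, laminin chains shared by most laminins, stood at 103 to 106 and 115 to 137 TPM against 200.3 and 114 in MEF, and neither passed. Lama5 lost its call in at least 1 of the fits that left out an E14 library.

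Of 22 matrix proteases and inhibitors, 20 were called higher in MEF and none in mESC (from 16 without E14 replicate 1 or 2 to 22 without v6.5 replicate 2 with 1 stem cell library left out). Plau, the urokinase that activates plasminogen, stood at 2.40, 3.44, 3.37 and 3.71 TPM against 143 (-5.79 ± 0.33; edgeR, adjusted p = 0.000913), and the tissue activator Plat differed in the same direction, at -5.01 ± 0.28. The inhibitor Timp1 stood at 36.4, 39.7, 41.9 and 30.7 TPM against 1038 (-5.06 ± 0.41), and the membrane collagenase Mmp14 at 25.1, 22.8, 24.2 and 29.6 TPM against 535 (-4.68 ± 0.63). Mmp13, collagenase 3, was low everywhere at 0.878, 1.42, 0.43 and 1.10 TPM against 4.66 (-2.65 ± 0.69). Mmp13 lost its call in at least 1 of the fits that left out an E14 library.

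The promoter of Mmp13 is shown because it holds the site TGACTCA, bound by AP-1 (the Fos and Jun dimer), in capitals. It is chr9:7272264-7272513 on the plus strand of GRCm38.p6, and the site lies 35 to 29 bases before the RefSeq start.
Mmp13: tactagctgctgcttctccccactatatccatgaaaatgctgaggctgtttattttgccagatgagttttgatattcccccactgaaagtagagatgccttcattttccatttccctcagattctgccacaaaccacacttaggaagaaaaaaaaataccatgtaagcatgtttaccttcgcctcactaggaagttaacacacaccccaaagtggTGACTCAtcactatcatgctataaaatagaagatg
An AP-1 match (searched as TGANTCA on both strands) was in 4 of the 15 protease promoters matched, those of Mmp3, Mmp10, Mmp13 and Plaur. It was in 6.45% of promoters of genes called higher in MEF, 4.20% of those called higher in mESC and 4.67% of all genes tested that had a promoter. A match is a description and shows no binding.

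Integrins are the receptors for this matrix. Of 18 tested, 10 (55.6%) were called higher in MEF and 1 (5.56%) in mESC, against 14.5% and 12.1% of all genes tested. With 1 stem cell library left out the MEF count ran from 7 without E14 replicate 1 or 2 to 11 without v6.5 replicate 1 or 2, and the mESC count from 0 without E14 replicate 1 or 2 to 2 without v6.5 replicate 1 or 2. Itgb1, the common beta chain, stood at 109.6, 149, 96.0 and 150.1 TPM against 687 (-2.69 ± 0.30). The fibronectin receptor chain Itga5 stood at 36.2, 31.7, 38.8 and 25.8 TPM against 568 (-4.36 ± 0.38), and the collagen receptor chain Itga11 at 1.13, 1.32, 1.38 and 1.40 TPM against 59.6 (-5.85 ± 0.31). The laminin receptor chains Itga6, at 64.4, 69.7, 20.1 and 58.4 TPM against 30.0, and Itga3, at 23.1, 18.0, 135 and 38.6 against 7.97, did not pass, and Itga6 in v6.5 replicate 1 lay below MEF. Itgb7 was called higher in mESC, at 18.8, 17.1, 8.83 and 3.35 TPM against 0.67 (edgeR, adjusted p = 0.0325). Itgb7 lost its call in at least 1 of the fits that left out an E14 library.

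Contractile genes were higher in MEF but stayed well above 0 in mESC. Of 24, 20 were called higher in MEF and none in mESC, and the count ran from 19 without E14 replicate 1 or 2 to 22 without v6.5 replicate 1 or 2 with 1 stem cell library left out. Acta2, smooth muscle actin and the usual mark of activated fibroblasts, stood at 93.2, 91.3, 125 and 89.8 TPM against 7896 in MEF (-6.57 ± 0.33; edgeR, adjusted p = 0.000913). Tagln (SM22) stood at 87.4, 90.1, 402 and 316 TPM against 4082 (-4.78 ± 0.52). Tpm1 (tropomyosin 1) stood at 294, 289.5, 1346 and 904 TPM against 3491 (-2.74 ± 0.39). For Tagln and Tpm1 both v6.5 libraries lay above both E14 libraries and all 4 lay below MEF. No gene of this list was called between the lines. Myh9, the nonmuscle myosin of every cell, stood at 219.5, 205, 481 and 435 TPM against 1222 (-2.27 ± 0.24). Srf, the transcription factor that drives many of these genes, was at 54.2 to 139 TPM against 133 and did not pass (edgeR, adjusted p = 0.122), and its coactivator Mkl1 was higher in MEF (-2.27 ± 0.34).

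Promoters of Cnn2 (calponin 2) and Myl9 (a regulatory light chain of myosin) are shown because each carries a CArG box, the sequence Srf binds, in capitals. They are chr10:79988350-79988599 and chr2:156775214-156775463, both on the plus strand of GRCm38.p6.
Cnn2: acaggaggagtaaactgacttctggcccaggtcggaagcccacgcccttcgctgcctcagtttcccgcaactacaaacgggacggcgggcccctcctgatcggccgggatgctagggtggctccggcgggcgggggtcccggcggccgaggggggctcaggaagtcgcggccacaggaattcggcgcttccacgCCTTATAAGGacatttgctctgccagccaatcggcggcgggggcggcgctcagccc
Myl9: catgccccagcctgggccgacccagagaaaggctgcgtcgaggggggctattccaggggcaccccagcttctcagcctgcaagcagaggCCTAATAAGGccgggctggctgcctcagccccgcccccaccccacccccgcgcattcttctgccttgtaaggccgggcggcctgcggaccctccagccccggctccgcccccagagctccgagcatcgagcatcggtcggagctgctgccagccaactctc
The box ends 47 bases before the start in Cnn2 and 152 bases before it in Myl9. A CArG box was in 4 of the 19 contractile promoters matched (Cnn2, Myl9, Vcl and Srf), in 2.09% of promoters of genes called higher in MEF and in 1.26% of all genes tested that had a promoter. Cnn2 stood at 110.2, 96.1, 395 and 156 TPM against 1198 (-3.07 ± 0.72; edgeR, adjusted p = 0.0255) and Myl9 at 28.5, 26.8, 53.2 and 68.6 TPM against 778 (-4.56 ± 0.26; edgeR, adjusted p = 0.000913). In both genes the 4 stem cell libraries lay below MEF, as in 27.5% of all genes tested. The v6.5 libraries lay above the E14 libraries, but neither gene was called between the lines. Cnn2 lost its call in at least 1 of the fits that left out an E14 library.

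The balance of epithelial and mesenchymal genes was opposite in the cell types. Of 14 mesenchymal transition regulators and cadherins, 13 were called higher in MEF and none in mESC (from 11 without E14 replicate 1 or 2 to 14 without v6.5 replicate 2 with 1 stem cell library left out). Vim (vimentin, the mesenchymal intermediate filament) stood at 341, 336, 664 and 226 TPM against 5416 (-4.02 ± 0.33). The repressors of epithelial genes Snai1, Snai2 and Zeb1 differed by -3.65, -4.70 and -2.51, and the mesenchymal cadherins Cdh2 and Cdh11 by -4.00 and -6.07. Of 25 epithelial adhesion genes, 21 were called higher in mESC and none in MEF, ranging from 17 without E14 replicate 1 or 2 to 22 without v6.5 replicate 1 or 2 with 1 stem cell library left out. Cdh1 (E-cadherin, chromosome 8, 109127267 to 109194146 in mm9) stood at 219.8, 218, 183 and 274 TPM against 0.133 in MEF, which was 1 read. Its ratio of mean CPM was 5430.0 (95% exact Poisson interval 974 to 214500). Epcam stood at 186, 179.5, 314 and 259 TPM with 3 reads in MEF, a ratio of 858 (95% exact Poisson interval 294 to 4162). The splicing factor Esrp1, which sets epithelial exon choice, stood at 50.8, 56.2, 33.6 and 74.3 TPM and was at least 255-fold higher. Cdh3 (P-cadherin) stood at 47.9, 48.2, 36.2 and 44.2 TPM against 52.9 in MEF and did not pass (edgeR, adjusted p = 0.203). Snai2 lost its call in at least 1 of the fits that left out an E14 library.

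Tight junction claudins and simple epithelial keratins were uneven between the stem cell lines. Krt8 stood at 48.6, 38.5, 335 and 133 TPM against 0.776 in MEF (6.93 ± 1.04), and its partner Krt18 at 44.9, 37.4, 274 and 186 TPM against 5.80 (3.84 ± 0.56). Cldn6 stood at 39.5, 30.7, 316 and 154 TPM with no MEF reads and was at least 313-fold higher. In all 3 genes both v6.5 libraries lay above both E14 libraries, with v6.5 replicate 1 the highest. None of these differences between lines passed (edgeR, adjusted p = 0.114, 0.0721 and 0.0863 for Krt8, Krt18 and Cldn6).

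The Hox genes, which record position along the body and limb, were nearly silent in mESC and broadly active in MEF. Of 35 tested (of 39 in the table), 33 were called higher in MEF and none in mESC. The count ran from 17 without E14 replicate 2 to 34 without v6.5 replicate 1 when 1 stem cell library was left out, and was 21 with v6.5 as the only stem cell line. The 39 genes summed to 11.8 to 25.6 TPM in the stem cell libraries and to 317.9 TPM in MEF. In MEF the highest were Hoxd13 at 34.3 TPM, Hoxb9 at 33.3 TPM, Hoxc6 at 20.9 TPM and Hoxb6 at 20.1 TPM. Hoxd13, a gene of the digits and the tail end (chromosome 2, 74506366 to 74509655 in mm9), stood at 2.43, 1.54, 1.31 and 1.61 TPM in mESC (-4.67 ± 0.86; edgeR, adjusted p = 0.0122). Hoxb9, a trunk gene, stood at 1.16, 1.21, 1.36 and 1.01 TPM (-5.42 ± 0.56; edgeR, adjusted p = 0.00231). Hoxa6 and Hoxc5 had no reads in any stem cell library and were at least 7.08-fold and 15.3-fold higher in MEF. The floor was the CPM of 3 counts in each stem cell library, averaged over the 4 libraries. Hoxd13, Hoxc6, Hoxb6 and Hoxc5 lost their calls in at least 1 of the fits that left out an E14 library.

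Genes of all 4 Hox clusters were called higher in MEF. In the Hoxb cluster every gene from Hoxb2 to Hoxb9 was called higher in MEF, at 3.83 to 33.3 TPM. The Hoxc cluster was active from Hoxc4 (7.73 TPM) to Hoxc10 (6.11 TPM), while Hoxc11, Hoxc12 and Hoxc13, at the far end, stood at 0.65, 0.294 and 0.495 TPM.

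**Figure D3:**
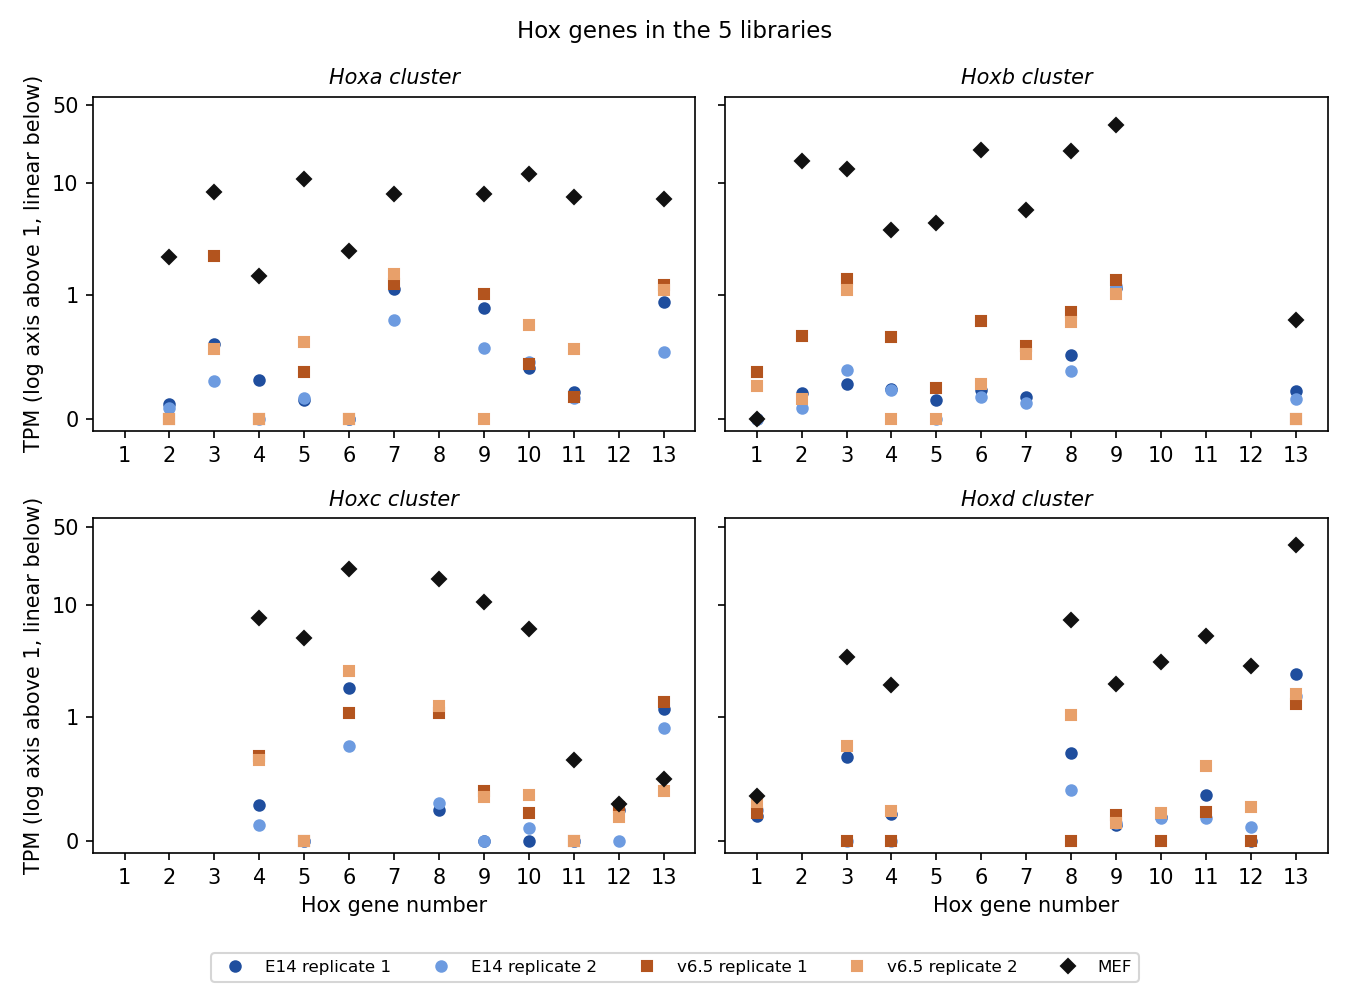
TPM of Hox genes by cluster and gene number in each of the 5 libraries, on an axis that is logarithmic above 1 TPM and linear below. Circles are E14, squares v6.5 and black diamonds MEF, and each point is 1 library. MEF lies above all stem cell libraries for most genes, up to 34.3 TPM at Hoxd13, while the stem cell values shown stay under 3 TPM.

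Transcription factors of limb and trunk mesenchyme were also higher in MEF. Of 31 tested, 22 were called higher in MEF and none in mESC, a count that ran from 13 without E14 replicate 2 to 25 without v6.5 replicate 1 or 2 with 1 stem cell library left out. The bone regulator Runx2 stood at 2.07, 1.78, 2.55 and 3.13 TPM against 36.6 (-5.27 ± 0.61), and Runx1 at 1.60, 1.76, 7.03 and 3.93 TPM against 66.4 (-4.86 ± 0.33). The forelimb factor Tbx5 stood at 6.53 TPM in MEF and the hindlimb factor Pitx1 at 6.39 TPM, against stem cell ranges of 0.139 to 0.535 and 0.302 to 0.588 TPM, and both were called. Osr1, Msx1 and Hic1 differed by -5.17, -4.49 and -5.93. Pitx1 lost its call in at least 1 of the fits that left out an E14 library.

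Signalling genes showed a different set of ligands in each cell type. Of 24 TGF-beta ligands, receptors and targets, 16 were called higher in MEF and none in mESC (from 10 without E14 replicate 2 to 17 without v6.5 replicate 1 or 2 with 1 stem cell library left out). The ligand Tgfb1 stood at 10.2, 9.41, 18.6 and 12.2 TPM against 206 in MEF (-4.38 ± 0.37), and Tgfb3 at 7.57, 6.73, 2.88 and 8.68 TPM against 199 (-5.26 ± 0.55). Inhba, the activin A subunit, stood at 9.73, 9.26, 4.21 and 8.64 TPM against 348 (-5.78 ± 0.49). Among receptors Tgfbr2 was called (-4.31 ± 0.32) and Tgfbr1, at 5.24 to 17.7 TPM against 15.6, was not. Among targets, Ctgf stood at 116, 86.6, 469.6 and 135 TPM against 2164 (-3.89 ± 0.97) and the BMP targets Id1 and Id3 differed by -2.89 and -3.80. Ctgf and Id1 lost their calls in at least 1 of the fits that left out an E14 library.

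Of 23 FGF and LIF pathway genes, 5 were called higher in mESC and 6 in MEF, against 12.1% and 14.5% of all genes tested. The counts ran from 3 without E14 replicate 1 or 2 to 8 without v6.5 replicate 1 or 2 and from 2 without E14 replicate 1 or 2 to 10 without v6.5 replicate 1 with 1 stem cell library left out. Fgf4, the ligand stem cells make for themselves, and Fgf17 were higher in mESC, while Fgf2 and Fgf7 were higher in MEF (-3.45 and -4.00). Fgf17 stood at 41.1, 35.8, 70.1 and 19.8 TPM with 2 reads in MEF, a ratio of 135 (95% exact Poisson interval 37.5 to 1117). Etv5, a target of FGF signalling, stood at 221, 205, 150.1 and 173 TPM against 21.03 (2.97 ± 0.34), whereas the related Etv4 was higher in MEF (-1.38 ± 0.39). Lif, the cytokine that feeders supply to stem cells, stood at 4.58, 3.69, 6.64 and 4.68 TPM against 28.2 in MEF (-2.96 ± 0.59). Its receptor Lifr stood at 21.5, 26.2, 4.97 and 11.6 TPM against 3.90 and did not pass (edgeR, adjusted p = 0.0692). Stat3, which carries the LIF signal, was lower in mESC (-1.28 ± 0.31), and the Pim kinases Pim1 and Pim3, among its targets, were higher (1.82 and 2.39). Fgf2, Etv4, Lif, Stat3, Pim1 and Pim3 lost their calls in at least 1 of the fits that left out an E14 library.

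Of 29 Wnt pathway genes tested, 12 were called higher in MEF and 4 in mESC, against 14.5% and 12.1% of all genes. With 1 stem cell library left out the MEF count ran from 6 without E14 replicate 2 to 15 without v6.5 replicate 1. The mESC count ran from 2 without E14 replicate 1 or 2 to 6 without v6.5 replicate 1 or 2. Ligands Wnt5a (1.59 to 3.14 TPM against 102; -5.81 ± 0.70) and Wnt11 (1.47 to 3.83 TPM against 45.6; -5.15 ± 0.60) were higher in MEF, as was Wisp1, a secreted matrix protein (-7.09 ± 0.62). Higher in mESC were Axin2, a feedback target of beta-catenin, at 21.04, 20.5, 16.9 and 34.5 TPM against 1.61 (4.77 ± 0.65), the DNA-binding partner Tcf7 at 70.6, 63.6, 84.7 and 94.7 TPM against 6.55 (3.39 ± 0.54), Fzd10 and Wnt7b. Tcf7l1, the repressor form in stem cells, stood at 32.5, 22.4, 67.9 and 58.1 TPM against 32.1 and did not pass. Fzd10 and Wnt7b lost their calls in at least 1 of the fits that left out an E14 library.

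Cytokine genes were higher in MEF. Of 22 tested, 15 were called higher in MEF and none in mESC (from 12 without E14 replicate 1 or 2 to 16 without v6.5 replicate 1 or 2 with 1 stem cell library left out). Cxcl12, Cxcl14 and Csf1 stood at 252, 302 and 222 TPM in MEF against 4.99 to 23.4, 4.48 to 8.36 and 7.49 to 12.9 TPM in mESC, and all 3 were called. Interferon response and antigen presentation genes were called higher in mESC in 5 of 29 and in MEF in 2, against 12.1% and 14.5% of all genes tested. The counts ran from 0 without E14 replicate 1 to 8 without v6.5 replicate 1 or 2 and from 1 without E14 replicate 1 or 2 to 4 without v6.5 replicate 1 or 2 with 1 stem cell library left out. Ifitm1, an antiviral membrane protein, stood at 312, 291, 348 and 232 TPM against 9.01 (4.85 ± 1.04) and was the largest of the 5. B2m, the light chain of class I MHC, stood at 47.6, 46.0, 46.3 and 84.2 TPM against 390.3 (-3.11 ± 0.31). The heavy chain H2-K1 stood at 35.9, 24.7, 132 and 82.9 TPM against 23.73 and did not pass, and its near-identical relatives make its count uncertain. Ifitm1 lost its call in at least 1 of the fits that left out an E14 library.

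Immediate early genes, which answer serum and handling, were called higher in MEF in 7 of 14 and in mESC in none. With 1 stem cell library left out the MEF count was 8 without v6.5 replicate 1 and 7 otherwise, and the mESC count was 1 without v6.5 replicate 2 and 0 otherwise. Fosl1 (3.59, 3.49, 6.596 and 5.91 TPM against 90.0; -4.55 ± 0.32) and Egr2 (-3.34 ± 0.36) were among them, and so were Jun and Junb (-1.87 and -2.16). Fos, at 71.1, 68.0, 209.8 and 92.4 TPM against 66.2, and Egr1, at 198, 159, 178 and 191 TPM against 275, did not pass.

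Genes of DNA replication and cell division were higher in mESC. Of 30 DNA replication and mitosis genes, 25 (83.3%) were called higher in mESC, against 12.1% of all genes tested, and none in MEF. The median difference was 2.50. In 29 of the 30 all 4 stem cell libraries lay above MEF, against 37.8% of all genes tested. The number called ran from 12 without E14 replicate 1 or 2 to 28 without v6.5 replicate 1 or 2 with 1 stem cell library left out. Mcm5, a subunit of the replicative helicase, stood at 461, 455, 296 and 225 TPM against 39.9 (2.86 ± 0.41; edgeR, adjusted p = 0.00588), and the other Mcm2 to Mcm7 subunits differed by 2.09 to 2.86. Pcna, the sliding clamp, stood at 515, 548, 285 and 425 TPM against 64.8 (2.47 ± 0.33). Top2a, the mitotic topoisomerase, stood at 390.4, 478, 87.8 and 349.7 TPM against 34.7 (2.97 ± 0.73), and v6.5 replicate 1 was about 4-fold below the other stem cell libraries. Rrm1, Tyms and Gins2 did not pass, at differences of 0.47, 0.70 and 0.86. Top2a lost its call in at least 1 of the fits that left out an E14 library.

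Several inhibitors of the G1 phase were lower in mESC. Of 24 G1 cyclins, Cdk inhibitors and p53 pathway genes, 5 (20.8%) were called higher in MEF and 1 (4.17%) in mESC. Over all genes tested the shares were 14.5% and 12.1%, and the list as a whole had a median difference of -0.09. With 1 stem cell library left out the MEF count ran from 5 without E14 replicate 1 or 2 to 10 without v6.5 replicate 1. The mESC count ran from 0 without E14 replicate 1 or 2 to 6 without v6.5 replicate 1. Cdkn2a, which encodes p16 and Arf, stood at 24.2, 20.2, 23.2 and 15.6 TPM against 314 (-4.17 ± 0.46; edgeR, adjusted p = 0.00279). Its neighbour Cdkn2b (p15) stood at 8.48, 3.55, 9.85 and 6.26 TPM against 179 (-4.97 ± 0.52), Cdkn2c (p18) at 1.02, 1.33, 1.51 and 1.45 TPM against 11.9 (-3.65 ± 0.48), and Cdkn1a (p21) at 125, 98.9, 94.8 and 73.3 TPM against 446 (-2.46 ± 0.35). For each of these 4 inhibitors all 4 stem cell libraries lay below MEF, as in 27.5% of all genes tested. Ccnd2 was higher in MEF as well (-4.38 ± 0.79), while Ccnd1 stood at 128, 105, 156 and 120.3 TPM against 160.3 and did not pass. Ccne1 (cyclin E1) was higher in mESC, at 141, 146, 92.3 and 126 TPM against 32.6 (1.66 ± 0.29). Trp53 itself was above MEF in all 4 stem cell libraries (344, 303, 231 and 186 TPM against 120.4) and did not pass (edgeR, adjusted p = 0.0667). Ccne1 lost its call in at least 1 of the fits that left out an E14 library.

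**Figure D4:**
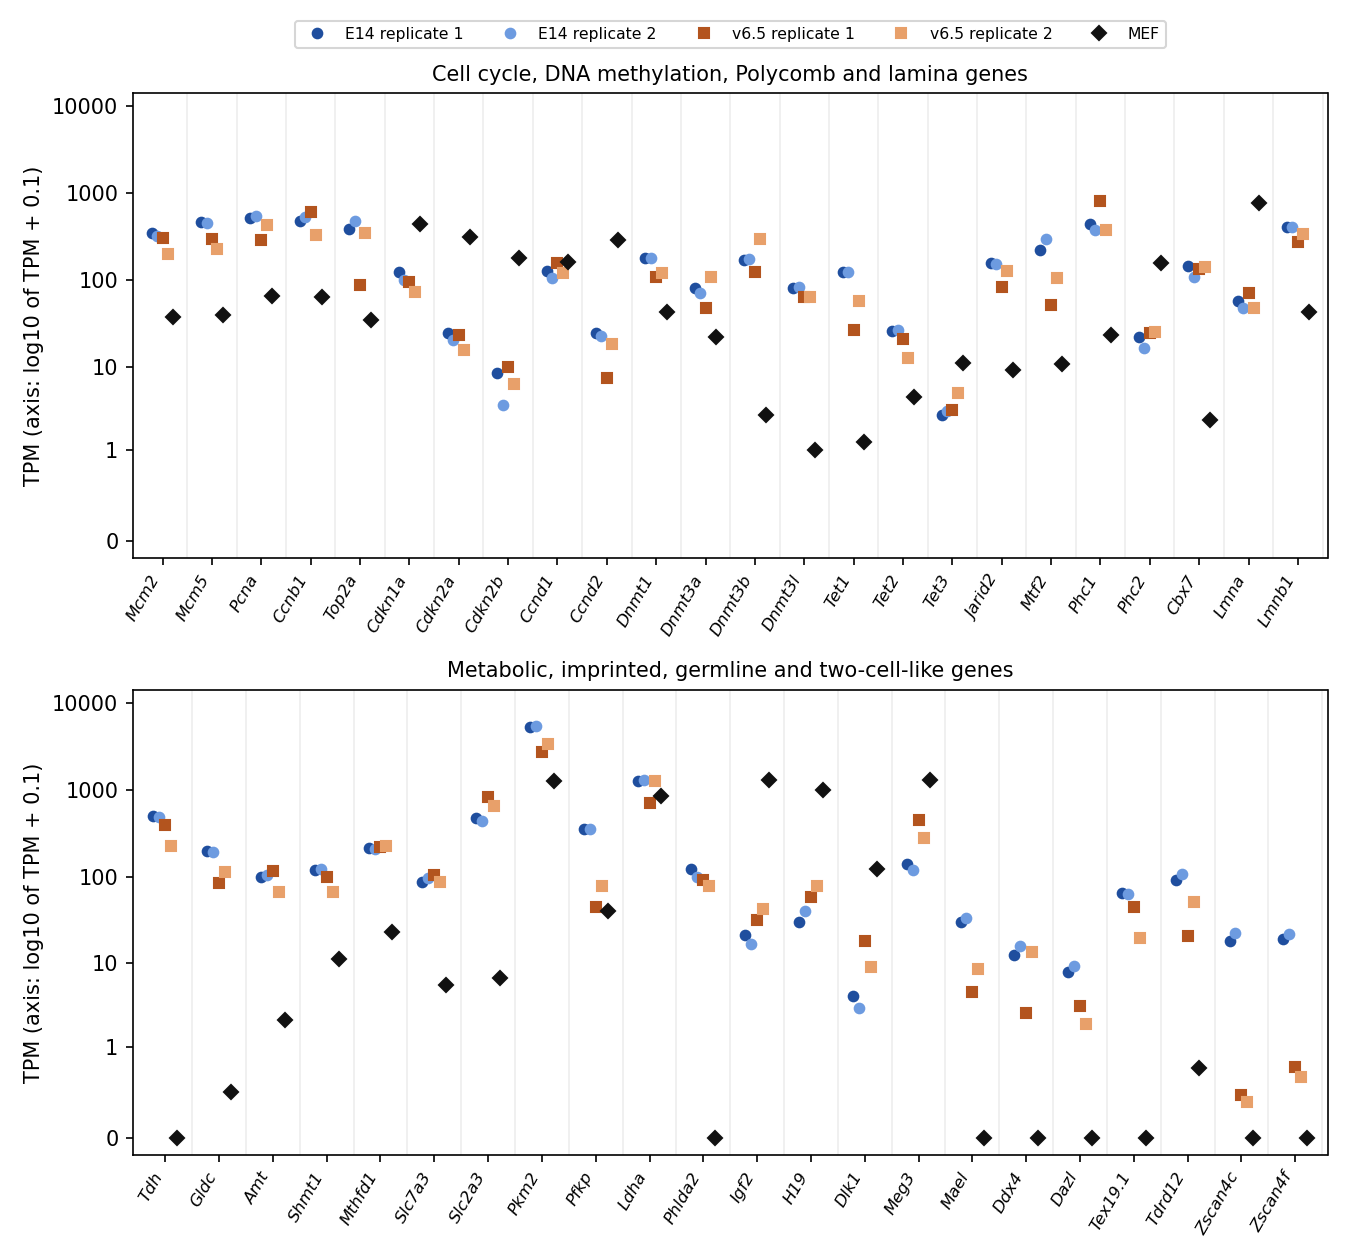
TPM of cell cycle, DNA methylation, Polycomb and lamina genes (top) and of metabolic, imprinted, germline and early-embryo genes (bottom) in each of the 5 libraries, on a log10 axis of TPM + 0.1. Circles are E14, squares v6.5 and black diamonds MEF, and each point is 1 library. The Cdk inhibitors, Phc2, Lmna, Igf2 and H19 lie above the stem cells in MEF, and Pfkp and the Zscan4 genes separate the E14 from the v6.5 libraries.

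Of 17 genes that write, erase or read DNA methylation, 9 (52.9%) were called higher in mESC and 3 (17.65%) in MEF. Over all genes tested the shares were 12.1% and 14.5%, so the MEF share was near that of all genes. Leaving out 1 stem cell library gave mESC counts from 3 without E14 replicate 1 to 11 without v6.5 replicate 1 and MEF counts from 0 without E14 replicate 2 to 3 without v6.5 replicate 1 or 2. Dnmt3b, a de novo methyltransferase, stood at 171, 176, 122 and 296 TPM against 2.70 (6.17 ± 0.79; edgeR, adjusted p = 0.00429), and its cofactor Dnmt3l at 79.8, 82.9, 62.9 and 63.0 TPM with 3 reads in MEF, a ratio of 249 (95% exact Poisson interval 85.2 to 1207). Tet1, which oxidises methylcytosine, stood at 122, 123, 26.2 and 57.4 TPM against 1.27 (8.00 ± 0.91; edgeR, adjusted p = 0.00306). Tet2 was higher in mESC too (2.20 ± 0.44), and Tet3 was lower (-2.13 ± 0.33), at 2.73 to 4.86 TPM against 11.1 in MEF. Maintenance factors differed less, with Dnmt1 at 1.52 ± 0.29 and Uhrf1 at 2.69 ± 0.49. The methyl-DNA readers Mbd1 and Mbd2 were higher in MEF (-1.50 and -1.82). Tet2, Tet3, Dnmt1, Uhrf1, Mbd1 and Mbd2 lost their calls in at least 1 of the fits that left out an E14 library.

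Of 30 subunits of the Polycomb complexes, 11 (36.7%) were called higher in mESC and 5 (16.7%) in MEF, against 12.1% and 14.5% of all genes tested (from 6 without E14 replicate 1 or 2 to 17 without v6.5 replicate 1 and from 1 without E14 replicate 2 to 8 without v6.5 replicate 1 or 2 with 1 stem cell library left out). In the complex that methylates histone H3 at lysine 27 (PRC2), the catalytic subunit Ezh2 stood at 110.0, 133, 108 and 112 TPM against 18.5 (2.58 ± 0.47) and Eed at 123, 148, 159 and 151 TPM against 34.3 (2.13 ± 0.33). The accessory subunits Jarid2 and Mtf2, which guide the complex, differed more, at 4.14 ± 0.65 and 3.85 ± 0.63, while the accessory subunit Phf1 was higher in MEF (-1.51 ± 0.42). Suz12 stood at 80.1, 96.0, 11.2 and 105 TPM against 7.43, with v6.5 replicate 1 near the MEF value, and did not pass (edgeR, adjusted p = 0.0809). In the ubiquitin ligase complex (PRC1) Phc1 stood at 445, 380.5, 819 and 378 TPM against 22.9 in MEF (4.32 ± 0.58) and Phc2 at 21.8, 16.5, 24.2 and 25.2 TPM against 155 (-3.14 ± 0.28). Cbx7 stood at 144, 109, 135 and 142 TPM with 3 reads in MEF, a ratio of 320.2 (95% exact Poisson interval 109.6 to 1552). Bmi1, a repressor of Cdkn2a in other cells, was higher in MEF (-2.56 ± 0.69), and so was Yaf2 (-1.59 ± 0.38), whose paralog Rybp was higher in mESC (1.47 ± 0.40). Phf1, Bmi1, Yaf2 and Rybp lost their calls in at least 1 of the fits that left out an E14 library.

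Among 21 subunits of the BAF chromatin remodeller tested, 4 (19.05%) were called higher in mESC and 3 (14.3%) in MEF, shares near the 12.1% and 14.5% of all genes tested. The mESC count ran from 0 without E14 replicate 1 or 2 to 9 without v6.5 replicate 1 and the MEF count from 1 without E14 replicate 1 or 2 to 3 without v6.5 replicate 1 or 2 with 1 stem cell library left out. Of the paralog pair Smarcc1 and Smarcc2, Smarcc1 stood at 160.4, 186, 113 and 145 TPM against 44.4 (1.48 ± 0.30) and Smarcc2 at 22.3, 20.8, 28.4 and 25.4 TPM against 56.6 (-1.44 ± 0.29). Smarcd1 was higher in mESC (1.72 ± 0.31) and Smarcd3 in MEF (-2.49 ± 0.68). The ATPase Smarca4 stood at 134 to 188 TPM against 97.2 and did not pass, and the alternative ATPase Smarca2 was higher in MEF (-2.57 ± 0.46). Smarcc1, Smarcc2, Smarcd1 and Smarcd3 lost their calls in at least 1 of the fits that left out an E14 library.

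At the nuclear envelope, Lmna, the A-type lamin of stiff differentiated nuclei, stood at 57.2, 48.0, 70.0 and 47.7 TPM against 762 in MEF (-4.19 ± 0.34; edgeR, adjusted p = 0.00159). Lmnb1 stood at 411, 403, 275 and 342 TPM against 43.0 (2.77 ± 0.31; edgeR, adjusted p = 0.00306), and the lamin B receptor Lbr at 141, 139, 110.0 and 123 TPM against 19.7 (2.50 ± 0.31). In each of these genes all 4 stem cell libraries lay on the same side of MEF. Over all genes tested, all 4 lay above MEF in 37.8% and below it in 27.5%. Caveolae, membrane pits of mechanically loaded cells, were lower in mESC, with Cav1 at 35.0, 32.7, 25.4 and 34.9 TPM against 326 (-3.47 ± 0.38) and the coat proteins Ptrf, Sdpr and Prkcdbp at -3.23, -3.95 and -5.76. In all, 8 (53.3%) of the 15 lamina and caveola genes were called higher in MEF and 3 (20%) in mESC, against 14.5% and 12.1% of all genes tested. With 1 stem cell library left out the MEF count ran from 6 without E14 replicate 1 or 2 to 9 without v6.5 replicate 1. The mESC count ran from 2 without E14 replicate 1 or 2 to 5 without v6.5 replicate 2.

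Among 20 RNA-binding and splicing regulators, 3 (15%) were called in each direction, a share near that of all genes tested (12.1% higher in mESC and 14.5% in MEF). Besides Esrp1 and Lin28a, Igf2bp1 was higher in mESC, at 213, 209, 127 and 224 TPM against 20.4 (2.96 ± 0.43). The muscleblind factors Mbnl1 and Mbnl2, which favour exons of differentiated cells, were higher in MEF at -3.08 ± 0.27 and -2.24 ± 0.34, and so was Rbfox2 (edgeR, adjusted p = 0.0168). With 1 stem cell library left out the mESC count ran from 3 without E14 replicate 1 or 2 to 6 without v6.5 replicate 1 and the MEF count from 2 without E14 replicate 1 or 2 to 3 without v6.5 replicate 1 or 2. Rbfox2 lost its call in at least 1 of the fits that left out an E14 library.

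Mouse stem cells feed one-carbon metabolism from threonine, and the genes of that route stood out. Tdh (threonine dehydrogenase, chromosome 14, 64111185 to 64127929 in mm9) stood at 503, 489, 398 and 227 TPM with no reads in MEF and was at least 1208-fold higher (edgeR, adjusted p = 0.00127). Gcat, the next enzyme, stood at 66.3, 57.8, 78.3 and 40.2 TPM against 10.1 (2.33 ± 0.57). The glycine cleavage enzymes were also higher. Gldc stood at 199.8, 195, 85.9 and 114 TPM with 2 reads in MEF, a ratio of 1665 (95% exact Poisson interval 461 to 13750), and Amt at 100.4, 105, 115 and 67.5 TPM against 2.16 (6.38 ± 0.67). Their partner Gcsh stood at 108, 109, 101 and 105 TPM against 64.3 and did not pass. Shmt1 and Mthfd1, which pass the carbon on to folate, differed by 3.17 ± 0.44 and 2.91 ± 0.40. In contrast the serine synthesis enzyme Phgdh stood at 257, 253, 353 and 228 TPM against 277 without a call. Of the 23 genes of this list, 8 were called higher in mESC and none in MEF (from 5 without E14 replicate 1 to 13 without v6.5 replicate 1 with 1 stem cell library left out). Gcat lost its call in at least 1 of the fits that left out an E14 library.

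Glycolysis genes were higher in mESC at particular steps. Of 26 glycolysis and hypoxia genes, 8 were called higher in mESC and none in MEF, a count that ran from 3 without E14 replicate 1 or 2 to 14 without v6.5 replicate 1 with 1 stem cell library left out. The glucose transporter Slc2a3 (Glut3) stood at 472, 444, 829.8 and 659 TPM against 6.80 (6.87 ± 0.72; edgeR, adjusted p = 0.00241), while Slc2a1 (Glut1) stood at 395, 319.5, 692 and 451 TPM against 137 and did not pass (edgeR, adjusted p = 0.0785). Hk2 differed by 1.70 ± 0.31, Aldoc by 5.54 ± 0.59, and Pdk1, which keeps pyruvate out of mitochondria, by 3.42 ± 0.39. Pkm2, the most abundant of the list, stood at 5322, 5414, 2707 and 3404 TPM against 1283 (1.19 ± 0.34; edgeR, adjusted p = 0.0447). Ldha stood at 1275, 1299, 699 and 1265 TPM against 846 and Gpi1 at 594, 549, 481 and 522 against 356, and neither passed. Hk2 and Pkm2 lost their calls in at least 1 of the fits that left out an E14 library.

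Germline genes that promoter methylation holds silent in somatic cells had transcripts in mESC. Of 21 tested, 12 were called higher in mESC and none in MEF (from 5 without E14 replicate 2 to 15 without v6.5 replicate 1 or 2 with 1 stem cell library left out), and the median difference was 8.06, or 4.20 with 12 genes at their bound. Mael, of the piRNA pathway, stood at 30.3, 33.7, 4.61 and 8.52 TPM with no MEF reads and was at least 62.2-fold higher. The germ cell helicase Ddx4 stood at 12.5, 15.9, 2.65 and 13.5 TPM (at least 57.7-fold), Dazl at 7.84, 9.35, 3.20 and 1.95 TPM (at least 13.66-fold) and Tex19.1, an antagonist of transposons, at 65.6, 63.4, 44.7 and 19.9 TPM (at least 151-fold). In Mael, Dazl and Tex19.1 both E14 libraries were above both v6.5 libraries. None of the 21 germline genes tested was called between the lines. Tdrd12 stood at 91.3, 108, 20.6 and 51.6 TPM with 1 read in MEF, a ratio of 769 (95% exact Poisson interval 138 to 30380). Ddx4, Dazl and Tex19.1 lost their calls in at least 1 of the fits that left out an E14 library.

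Genes of the rare state that resembles the first embryonic divisions followed the line. Zscan4c, which acts in telomere maintenance, stood at 18.3, 22.5, 0.21 and 0.16 TPM with no MEF reads, and Zscan4f at 19.22, 22.2, 0.552 and 0.394 TPM. The E14 libraries were high and both v6.5 libraries were near 0, and the E14 minus v6.5 difference was 8.06 ± 0.64 for Zscan4c (edgeR, adjusted p = 0.0241). These were the 2 of 10 tested members called higher in mESC than MEF, against 12.1% of all genes tested. Without v6.5 replicate 1 the list had 6 calls. The Zscan4 copies are nearly identical, so the split of reads among them is uncertain. Zscan4c and Zscan4f lost their calls in at least 1 of the fits that left out an E14 library.

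Imprinted genes, expressed from 1 parental copy, leaned towards MEF. Of 27 tested, 11 were called higher in MEF and 4 in mESC, against 14.5% and 12.1% of all genes tested. With 1 stem cell library left out the MEF count ran from 6 without E14 replicate 2 to 13 without v6.5 replicate 1. The mESC count ran from 0 without E14 replicate 1 or 2 to 7 without v6.5 replicate 1. Igf2, a fetal growth factor, stood at 21.2, 16.6, 32.2 and 42.2 TPM against 1311 (-5.74 ± 0.40; edgeR, adjusted p = 0.00122), and its neighbour H19 at 30.1, 40.9, 57.8 and 78.5 TPM against 1012 (-4.67 ± 0.33). Dlk1, of another imprinted domain, stood at 4.18, 2.97, 18.4 and 9.12 TPM against 123 (-4.60 ± 0.53), and Meg3 of that domain at 142, 121, 451 and 279.8 TPM against 1301 (-2.29 ± 0.41). In Igf2, H19, Dlk1 and Meg3 both v6.5 libraries were above both E14 libraries and below MEF. None of the 27 imprinted genes tested was called between the lines. Phlda2, a growth restrictor of the placenta, had no reads in MEF and stood at 124, 99.0, 90.7 and 79.4 TPM, at least 138-fold higher (edgeR, adjusted p = 0.0365). Snrpn stood at 138, 147, 136 and 243 TPM against 20.9 (2.71 ± 0.72). Mest stood at 4.33, 3.12, 83.3 and 33.8 TPM against 61.8 and did not pass (edgeR, adjusted p = 0.137), with the v6.5 libraries on either side of the MEF value. The strand of the reads is not known here, so Airn and Igf2r, which overlap, cannot be separated. Meg3, Phlda2 and Snrpn lost their calls in at least 1 of the fits that left out an E14 library.

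On the sex chromosomes, 3 of 11 genes tested were called higher in mESC and 2 in MEF, against 12.1% and 14.5% of all genes. None of the 11 was called without E14 replicate 1 or 2. Xist, the RNA that coats the inactive X, stood at 2.77, 3.06, 1.17 and 4.05 TPM against 19.19 (-2.18 ± 0.56), and its antisense partner Tsix at 2.83, 2.50, 0.478 and 1.13 TPM with 1 read in MEF, a pair whose reads cannot be told apart without strand. Y-linked transcripts were present in all 5 libraries, with Eif2s3y at 60.6, 70.5, 9.68 and 25.0 TPM against 6.23 (2.14 ± 0.58). Xist, Tsix and Eif2s3y lost their calls in at least 1 of the fits that left out an E14 library.

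Genes that mark the next steps of development were low but present. Of 15 epiblast priming and germ layer factors, 5 were called higher in mESC and 2 in MEF, against 12.1% and 14.5% of all genes. With 1 stem cell library left out the mESC count ran from 3 without E14 replicate 1 or 2 to 7 without v6.5 replicate 1. The MEF count ran from 1 without E14 replicate 1 or 2 to 2 without v6.5 replicate 1 or 2. Otx2, a factor of the primed epiblast, stood at 42.0, 44.6, 17.5 and 65.8 TPM with no MEF reads and was at least 117-fold higher. Fgf5 stood at 6.00, 3.66, 2.81 and 29.8 TPM against 2.02 and did not pass, with v6.5 replicate 2 far above the other libraries. Gata6 and Gata3 were higher in MEF (-4.18 and -3.82). Gata3 lost its call in at least 1 of the fits that left out an E14 library.

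Markers of other cell types were also examined. Of 10 blood and macrophage markers, 6 were called higher in MEF and none in mESC (from 3 without E14 replicate 2 to 8 without v6.5 replicate 1 with 1 stem cell library left out). Their summed level was 32.5 to 87.7 TPM in the stem cell libraries and 131.6 TPM in MEF. Csf1r, the macrophage growth factor receptor, stood at 0.303, 0.243, 0.349 and 0.252 TPM against 9.83 (-7.45 ± 0.52), Tyrobp at 0.788, 0.467, 1.85 and 0 against 22.0 TPM, and Fcer1g at 0.325, 0.241, 0.816 and 0.711 against 13.1 TPM. C1qc, a complement component that macrophages make, was among the 12 leading genes higher in MEF, at 35.0 TPM. The part of macrophages in the cytokine values of MEF was not tested. In MEF the endothelial markers Cdh5, Pecam1, Tie1 and Cldn5 had no reads, while Flt1 stood at 54.4 TPM. Keratinocyte markers summed to 5.23 TPM in MEF and 2.45 to 6.42 TPM in the stem cells, and none was called. Of 9 endothelial markers tested, 2 were called higher in MEF and 1 in mESC. The neural, skeletal muscle, and cartilage and fat lists had 6, 4 and 8 members tested. They held 3, 0 and 4 calls higher in MEF and 2, 1 and 0 higher in mESC. Over all genes tested, 14.5% were called higher in MEF and 12.1% in mESC. Tyrobp lost its call in at least 1 of the fits that left out an E14 library.

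The 12 leading genes higher in MEF with at least 20 TPM there were Fmod, Sprr2k, Gm15079, Gm17329, Lrrc17, C1qc, C1qtnf3, Fibin, Igfbp5, Gm22, Tfpi2 and Ptn. Lrrc17, a secreted leucine-rich repeat protein (chromosome 5, 21049344 to 21081720 in mm9), stood at 0.189, 0.596, 0.559 and 0.509 TPM against 125 (-8.50 ± 0.83; edgeR, adjusted p = 0.00219). Igfbp5, which binds insulin-like growth factors, stood at 0.65, 0.718, 0.207 and 1.25 TPM against 98.6 (-7.59 ± 0.76; edgeR, adjusted p = 0.00226). Ptn (pleiotrophin, a heparin-binding growth factor) stood at 3.17, 4.08, 9.00 and 19.03 TPM against 944 (-7.43 ± 0.43; edgeR, adjusted p = 0.00127). Its v6.5 libraries lay above its E14 libraries, a line difference that did not pass (edgeR, adjusted p = 0.123). Gm15079 is a processed pseudogene whose reads may belong to its parent gene. Gm15079 and Gm17329 lost their calls in at least 1 of the fits that left out an E14 library.

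The 2 stem cell lines were also compared with each other. Of all genes tested, 0.46% (85) were called between E14 and v6.5, with 28 (0.151%) higher in E14 and 57 (0.308%) higher in v6.5, and 21 of the 85 were protein coding. The count was 0 without E14 replicate 1 or 2, at 3459 genes with an unadjusted p under 0.05 in the full fit, and 634 without v6.5 replicate 1 and 4248 without v6.5 replicate 2. DESeq2 called 1103. Pfkp, the platelet phosphofructokinase, stood at 351, 357, 45.0 and 79.4 TPM against 40.8 in MEF, so E14 was high and v6.5 near MEF (E14 minus v6.5 2.49 ± 0.32; edgeR, adjusted p = 0.0473). Nes (nestin, an intermediate filament of progenitors) stood at 15.1, 13.6, 45.5 and 85.1 TPM against 87.2, so v6.5 was the higher line (E14 minus v6.5 -2.40 ± 0.31; edgeR, adjusted p = 0.0473). Of the 12 genes with the largest differences by the naming rule (6 per direction), 5 were classed as processed pseudogenes, whose reads the authors' counting may split between copies. Among these 5, Ftl2, a ferritin light chain copy, stood at 2196, 1755, 1.59 and 0.494 TPM, and Rpl23a-ps3, a ribosomal protein copy, at 0.664, 0.51, 2299.7 and 478 TPM.

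Line by line, edgeR called 5394 genes between E14 and MEF and 2982 between v6.5 and MEF, comparisons that share the MEF library.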

How the data were processed

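RNA was measured by sequencing in 20 libraries, of which the 8 survey libraries were used here with 3 day 0 libraries of the time course. The authors deposited expected counts per gene and TPM for the survey. Per the submitters' processing notes, TopHat 1.3 and RSEM were used, and the build was mm9. The time course table holds FPKM that the authors deposited, and the same notes name TopHat 1.14, Bowtie 0.12.7 and Cufflinks 1.3.0. Neither strand nor annotation release is known here. The survey table has 42458 entries, 343 of them without values. The 16 bound columns of the survey and 17 columns of the time course were not used.

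Expected counts (58.0% whole within 1e-09) were rounded. The 18484 genes that reached 1 CPM in any of the 8 libraries were fitted with edgeR 4.0.16 (R 4.3.3, TMM scaling, glmQLFit and glmQLFTest) with the groups E14, v6.5, MEF, partially reprogrammed and induced pluripotent, which share the spread and leave 3 residual degrees of freedom. P-values were adjusted by Benjamini-Hochberg over all genes tested. Library totals ran from 7536503 to 23662593, so 3 counts equal 0.342 CPM in MEF. Deposited TPM of genes without reads had medians of 0.247 to 0.481 in the 5 libraries. List members without reads are given as 0 TPM, and low TPM values can overstate the reads behind them. Exact Poisson intervals cover counting error only.

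Members and gene lists were chosen with earlier results of these data known, and some lists share members. Genes were named when on a list, or as the 12 largest log2 differences per direction (adjusted p under 0.05, every stem cell library on the same side of MEF, at least 20 TPM in every stem cell library or in MEF, Xist and Y genes excepted), or the 6 largest per direction between the lines. On simulated counts for mESC against MEF over 18484 genes, 11 of 50 genes changed 4-fold, 39 of 50 at 16-fold, 47 of 50 at 64-fold and 49 of 50 at 256-fold were recovered, with 7 false calls among 18284 unchanged genes. The simulation held no difference between the stem cell lines. Its changed genes were few, not of low level, and balanced in direction. These rates therefore need not hold for the real comparison. Alternatives used limma 3.58.1, DESeq2 1.42.0, other filters and libraries left out. Gene classes came from GENCODE M21 (32595 identifiers matched), and promoters from RefSeq GRCm38.p6, a build other than the mm9 of the gene positions. Some list members are not reported by name here, and the list counts include them.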

Additional observations from a re-analysis of the deposited data

Results flagged for a closer look

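For 6 genes named above, the effect against MEF differed between the stem cell lines, as tested by E14 against v6.5 in the same fit (edgeR, adjusted p under 0.05 over all genes tested). E14 minus v6.5 was 2.49 on the log2 scale for Pfkp and -2.40 for Nes. It was 8.06 for Zscan4c and 7.94 for Zscan4f. It was 11.09 for Ftl2 and -11.70 for Rpl23a-ps3, both processed pseudogenes whose reads may come from other copies. In each of these 6 genes both libraries of a line lay on the same side of both libraries of the other line. No line difference was called without E14 replicate 1 or without E14 replicate 2.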

How the results depend on the processing

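The number of genes called between mESC and MEF (4920, of which 2245 were higher in mESC and 2675 in MEF) ran from 1683 to 8784 when 1 stem cell library was left out, with 636 to 4607 higher in mESC and 1040 to 4177 higher in MEF. It fell to 2727 (1154 and 1573) when a fold of 2 was tested, to 2982 (1461 and 1521) with v6.5 as the only stem cell line, and to 1454 higher in mESC with both lines in 1 group. It rose to 3763 higher in mESC with v6.5 replicate 2 as a group of its own, a setting chosen after seeing the data, as were v6.5 replicate 1 alone and the set of protein-coding genes. The count stayed within 1.5 times under DESeq2 (5693), under limma on log2(TPM + 1) (5325) or log2(TPM + 0.1) (5530), under DESeq2's size factors (4950) and without a filter on low counts (6184). The higher in mESC share of calls was 45.6% in the reported fit, 41.3% with DESeq2's size factors, 50.1% with DESeq2, 54.9% and 58.0% with limma, and 52.6% without a filter. The median difference over all genes was 0.11 with DESeq2's size factors and 0.57 without a filter.

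The count between E14 and v6.5 (85, with 28 higher in E14 and 57 in v6.5) ran from 0 to 4248 when 1 library was left out, with 0 to 2149 higher in E14 and 0 to 2099 in v6.5. It was 1103 (347 and 756) with DESeq2, 517 (253 and 264) and 535 (207 and 328) with limma at pseudocounts of 1 and 0.1, 1417 (428 and 989) without a filter, 43 (18 and 25) against a fold of 2, 11 (7 and 4) with the 4 stem cell libraries only, and 5 (2 and 3) among protein-coding genes without ribosomal protein genes. The cause of these shifts was not tested.

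With the replicate number as a block, 5353 genes were called between mESC and MEF (2452 and 2901) and 129 between the lines (37 and 92). The labels do not say that the numbers pair the samples, and the deviations of E14 and v6.5 replicate 1 correlated at 0.279 over 2 pairs.

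Of 268 genes named, 55 calls were lost without E14 replicate 1 and 64 without E14 replicate 2, none without v6.5 replicate 1 or 2, 36 against a fold of 2, 45 with v6.5 alone and 34 with both lines in 1 group. Apart from the pseudogenes Ftl2 and Rpl23a-ps3, the signs that turned were of genes not called between mESC and MEF. Lamc1 was at 0.14 under limma at either pseudocount. With 1 stem cell library left out, Tcf7l1 ran from -0.0196 to 0.301, Fos from -0.0681 to 0.667, Tbx3 from -0.29 to 0.733 and Ldha from -0.0317 to 0.255. With v6.5 alone the turned values were Ftl2 (-0.29) and Rpl23a-ps3 (0.65), and with E14 alone Fos (-0.29), Plod2 (0.049) and Tcf7l1 (-0.52). With v6.5 replicate 1 as a group of its own they were Itga6 (-0.49), Lamc1 (0.0282), Ldha (-0.31), Phgdh (0.32), Rpl23a-ps3 (1.43), Rrm1 (-0.0440) and Srf (0.027). With v6.5 replicate 2 in that place they were Ftl2 (-1.46), Hoxc13 (-0.51), Klf4 (-0.0366) and Tbx3 (-1.07). MEF had 1 library of 8762640 counts, where 3 reads equal 0.342 CPM. Bounds for genes with no MEF reads use that floor, and ratios for genes with 1 to 3 reads carry wide counting intervals.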
